A study of Rattus norvegicus with 8 samples.

Results

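The genes described here encode components of the matrix that surrounds neurons in perineuronal nets and that accumulates in the glial scar after injury. They are 10 genes, fixed by name: the tenascins Tnc and Tnr, the lecticans Acan, Bcan, Ncan and Vcan, the link protein gene Hapln1, the transmembrane chondroitin sulfate carriers Cspg5 and Ptprz1, and the hyaluronan synthase gene Has2. All 10 were found among 14217 genes that the platform annotation names with a single symbol, and they are read by 19 of 20826 such probe sets, control probe sets left out.

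Hyaluronan is a long sugar polymer made at the cell surface by hyaluronan synthases. Lecticans are chondroitin sulfate proteoglycans that bind hyaluronan at one end, where link proteins stabilise the bond, and tenascins at the other, so that the 3 kinds of molecule form a lattice. In the hippocampus such a lattice encloses mainly parvalbumin interneurons, and pyramidal cells of some fields, and reactive astrocytes and oligodendrocyte precursors lay down several of the same molecules around a wound, where chondroitin sulfate is known to impede axon growth.

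RNA came from subdissected rat hippocampal slice cultures, thin explants of brain kept alive in a dish, that are labelled as field CA1 or field CA3. There was 1 CA1 lesion array with 3 CA1 control arrays, and 1 CA3 lesion array with 3 CA3 control arrays, each made from a pool of 15 cultures at 7 days. Both lesion arrays have number 1 in their titles, as does 1 control of each field. The main lesion effects set each lesion array against all 3 controls of its field, with no term for the number. Strain, animal age, the kind of lesion and the event from which the days count are not given in the labels, and neither is a treatment of the controls. A pool hides the spread between cultures, and nothing says that the 3 controls of a field came from separate animals, so p-values here measure the spread between these arrays, which may be technical.

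The fields could be told apart by their own markers. All 6 tested CA1 pyramidal cell markers were lower in CA3 controls, 4 of them past the threshold of an adjusted p of 0.05, and all 4 tested CA3 markers were higher, 2 of them past it. The summed intensity of the 6 CA1 markers was at most 12370 units in any CA3 array and at least 60095 units in any CA1 array. Of the markers of cells tied to the matrix, all 11 astrocyte markers passed the filter on dim probe sets described below. Pvalb, the parvalbumin gene, passed it too, while Gad2, another interneuron marker, did not. That filter ranks brightness and does not show that a cell type is present. Of the 6 oligodendrocyte precursor markers on the array, 4 passed the filter, while Cspg4 and Olig2 did not. The ratio of 3' to 5' signal for Gapdh, which rises as RNA degrades, was 4.65 in the CA1 lesion array and between 3.71 and 5.0 in CA1 controls. In CA3 it was 5.23 in the lesion array and between 3.75 and 3.93 in controls, so there the lesion array stood above its controls. The same ratio for Actb did not, at 19.8 in the CA3 lesion array and between 15.0 and 21.4 in CA3 controls. In bulk RNA, fewer cells of a type and less RNA per cell cannot be told apart.

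All levels below are log2(intensity + 16). A difference of 1 on that scale is close to a doubling for a bright probe set and more than a doubling for a dim one. Levels of different probe sets were not compared, because each has its own brightness. Probe sets in the lowest 40 percent by mean level were not tested. Where a gene has several probe sets, the brightest is taken as its main one. Of the 19 matrix probe sets, 10 were tested, from 8 genes: 1 each for Tnc, Acan, Vcan, Hapln1, Cspg5 and Has2, and both for Bcan and Ptprz1. Tnr and Ncan had no tested probe set. The filter stood at a mean of 8.35, with a Hapln1 probe set just above it at 8.59 and a Vcan probe set just below it at 7.98.

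Across the matrix genes no difference passed the threshold of an adjusted p of 0.05 in limma, between lesion and control or between the fields. The count was 0 of 10 tested probe sets for the mean lesion effect over both fields, for the lesion effect in CA1, for that in CA3 and for the difference of these effects, where the percentage of all 18625 tested probe sets that passed was also 0. It was 0 of 10 for CA3 against CA1 controls, where 0.526% of all tested probe sets passed. These counts come from the fit without a term for the number. With the number as a block, other probe sets did pass for the lesion effects, but no main matrix probe set did, as given in the last section. At an unadjusted p under 0.05, 1 of the 10 was reached for the mean lesion effect and 1 for CA1, the Tnc probe set both times, and 0 for CA3, for the difference of effects and for the fields. Among all tested probe sets that level was reached by 6.41% for the mean lesion effect, 3.63% for CA1 and 8.31% between the fields, so 1 of 10 is near the share of all probe sets. The median difference of the 10 was -0.12 for the mean lesion effect, with 2 higher and 8 lower, beside a median of 0.02 over all tested probe sets. Intervals were wide for this design: the median 95% interval of the 10 reached 0.71 to either side for the mean lesion effect and 1.01 for a single field.

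**Figure D1:**
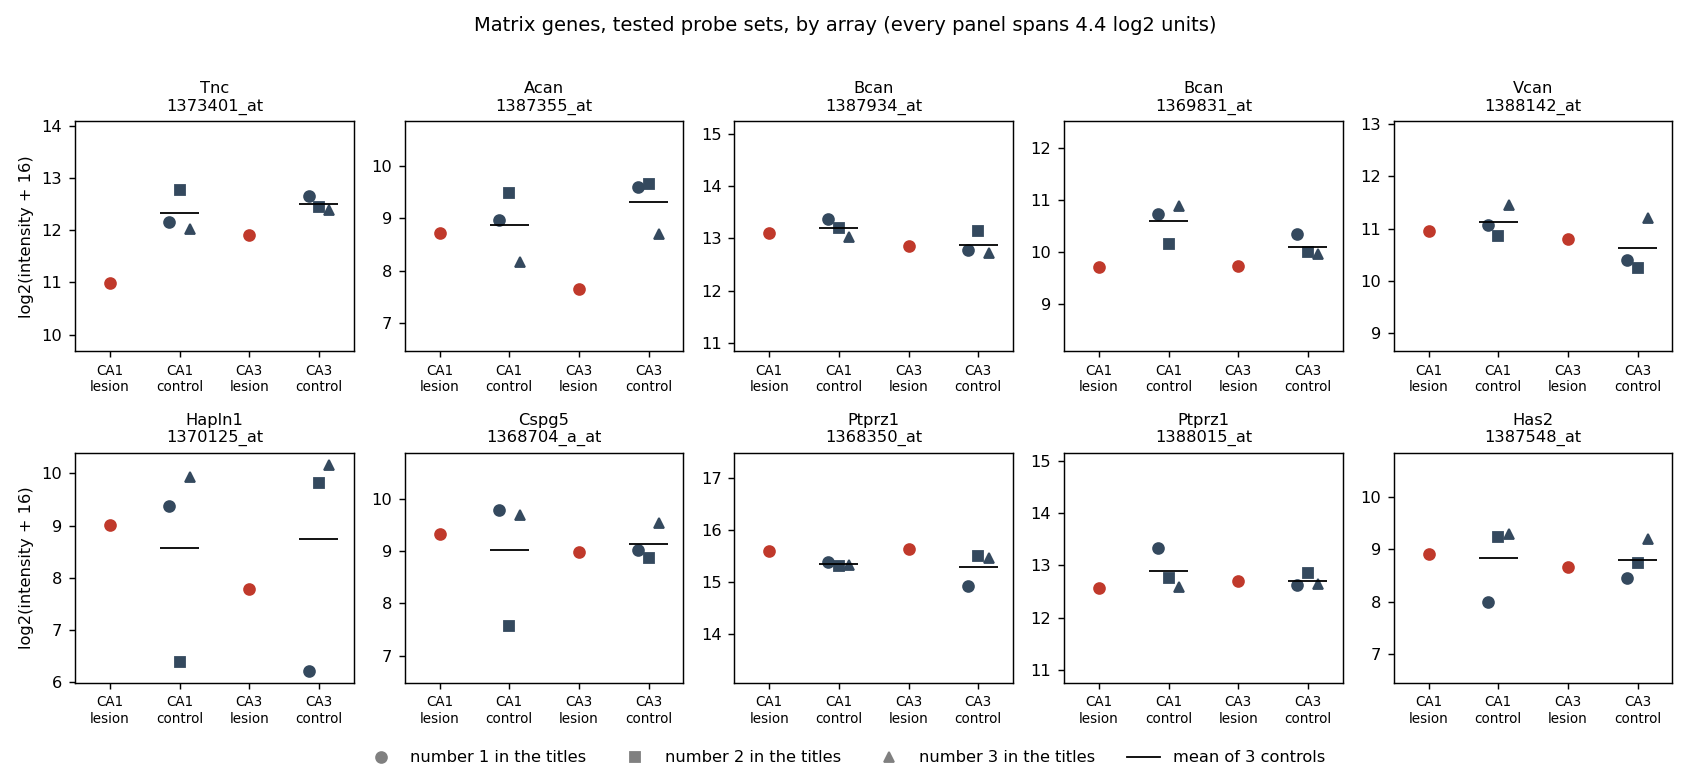
Each panel shows 1 tested probe set in the 8 arrays, as log2(intensity + 16), with lesion arrays in red, controls in dark blue, the marker shape giving the number in the title and a bar at the mean of 3 controls. For Tnc both lesion arrays (10.99 in CA1 and 11.92 in CA3) lie below all 6 controls, as they do for the dimmer Bcan probe set, while for the brighter Ptprz1 probe set both lie above all 6.

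Tnc, which encodes tenascin-C, a glycoprotein made by astrocytes and their precursors and known to increase around brain injuries, had the smallest p among the members for the mean lesion effect, and its values were lower in the lesion arrays. In CA1 its intensity was 2019 units in the lesion array, against 4552, 7010 and 4156 units in controls 1 to 3. In CA3 it was 3848 units in the lesion array, against 6455, 5596 and 5315 units in controls 1 to 3. The lesion array was thus below all 3 controls in each field, and the groups did not overlap even when the fields were put together.

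On the log2 scale Tnc stood at 10.99 in the CA1 lesion array and at 12.32 ± 0.40 in CA1 controls (SD, n = 3), a difference of -1.33 ± 0.33 (SE, 2.51-fold lower, limma adjusted p = 0.822). In CA3 the level was 11.92 in the lesion array and 12.5 ± 0.14 in controls (SD, n = 3), a difference of -0.58 ± 0.33 (SE, 1.5-fold lower, limma adjusted p = 0.937). The mean lesion effect was -0.96 ± 0.23 (SE, 1.94-fold lower, 95% interval -1.48 to -0.44, unadjusted p = 0.00213 and adjusted p = 0.673 in limma). The effect differed between CA3 and CA1 by 0.75 (95% interval -0.29 to 1.79). Both lesion arrays below all 6 controls was the pattern of 3.77% of all tested probe sets, and in single fields the lesion array lay below all 3 controls for 24.8% of them in CA1 and 24.8% in CA3. Leaving out single controls moved the mean lesion effect between -1.03 and -0.84.

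Markers of several cell types differed beside Tnc, in both directions. Of 11 astrocyte markers, 9 were higher in the mean lesion effect and 0 passed, with a median of 0.24. Their summed intensity was 1238190 units in the CA1 lesion array, between 922257 and 1321850 in CA1 controls, 1327440 in the CA3 lesion array and between 839409 and 1012450 in CA3 controls. Gfap, the intermediate filament gene of astrocytes, read 18.58 in the CA1 lesion array, against 18.23, 18.37 and 18.87 in CA1 controls, and 18.94 in the CA3 lesion array, against 18.41, 18.19 and 18.07 in CA3 controls. It lay among the controls in CA1 and above them in CA3 (mean lesion effect 0.41, limma adjusted p = 0.780). All 9 pan-neuronal markers were lower in the mean lesion effect, with a median of -0.27, and 0 passed. In CA3 all 9 were lower, while in CA1 6 were lower and 3 higher. All 8 myelin markers were higher in the mean lesion effect, with a median of 1.70, and 0 passed. The summed intensity of the neuronal markers was 204321 units in the CA1 lesion array, between 205311 and 265663 in CA1 controls, 296239 in the CA3 lesion array and between 300590 and 414261 in CA3 controls. That of the myelin markers was 620224 units in the CA1 lesion array, between 62383 and 668142 in CA1 controls, 682564 in the CA3 lesion array and between 80802 and 503344 in CA3 controls. The 4 tested oligodendrocyte precursor markers were higher too, with a median of 0.42, and 0 passed. All 10 tested microglia markers were higher, with a median of 2.60, and 0 passed. Their summed intensity was 144636 units in the CA1 lesion array, between 7075 and 100507 in CA1 controls, 102971 in the CA3 lesion array and between 6812 and 83814 in CA3 controls. For the myelin and the microglia sums, control 1 was the lowest and control 3 the highest control in each field. The lesion arrays carry number 1. The part of these cell types, of the array number and of the Gapdh ratio in the Tnc values was not tested.

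Tnr, the tenascin of oligodendrocytes and perineuronal nets, was dim. Its only probe set read 6.72 in the CA1 lesion array, against 6.07, 7.25 and 6.08 in CA1 controls, and 7.08 in the CA3 lesion array, against 5.58, 9.15 and 6.79 in CA3 controls. The lesion arrays lay inside the control range in both fields, and CA3 controls alone spanned the whole range of 3.57 log2 units. In a fit without the filter the mean lesion effect was 0.08 with a 95% interval of -2.09 to 2.25, which leaves changes of several-fold in either direction undetectable.

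None of the 4 lecticans passed the test, and differences between them were not tested. Bcan encodes brevican, a lectican made mainly by glia, with a secreted form and a form anchored to the membrane, and it has 2 tested probe sets. The brighter read 13.10 in the CA1 lesion array, against 13.37, 13.20 and 13.03 in CA1 controls, and 12.85 in the CA3 lesion array, against 12.79, 13.14 and 12.72 in CA3 controls. Both lesion arrays lay within their controls, and the mean lesion effect of -0.06 had one of the narrower intervals, from -0.48 to 0.35.

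The dimmer Bcan probe set read 9.72 in the CA1 lesion array, against 10.74, 10.16 and 10.89 in CA1 controls, and 9.74 in the CA3 lesion array, against 10.35, 10.01 and 9.96 in CA3 controls. Here both lesion arrays lay below all 6 controls, at -0.62 ± 0.33 for the mean lesion effect (SE, limma adjusted p = 0.796). The Pearson correlation between the 2 probe sets over the 8 arrays was 0.35, and which form of brevican each one reads was not determined here. With Tnc this made 2 of 10 tested matrix probe sets with both lesion arrays below the controls of their fields, beside 8.03% of all tested probe sets. In each single field the lesion array was below its controls for 3 of the 10, beside 24.8% of all tested probe sets. In CA1 these were Tnc and the dimmer probe sets of Bcan and Ptprz1, and in CA3 Tnc, Acan and the dimmer Bcan probe set.

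Acan encodes aggrecan, the lectican most characteristic of perineuronal nets. Its tested probe set read 8.72 in the CA1 lesion array, against 8.97, 9.48 and 8.16 in CA1 controls, and 7.65 in the CA3 lesion array, against 9.60, 9.66 and 8.69 in CA3 controls. The CA3 lesion array was below all its controls and the CA1 lesion array was not, with effects of -1.67 ± 0.89 in CA3 (SE, limma adjusted p = 0.937) and -0.15 ± 0.89 in CA1 (SE, adjusted p = 0.999). The difference of these effects, -1.52, had a 95% interval of -4.33 to 1.29 (limma adjusted p = 1.0), so the fields are not shown to differ. The dimmer Acan probe set, below the filter, ran the other way in CA3, with 7.62 in the lesion array against 6.95, 6.89 and 6.42 in controls. Pvalb, whose neurons carry most aggrecan-rich nets, read 10.72 in the CA1 lesion array, against 11.50, 10.78 and 10.80 in CA1 controls, and 11.14 in the CA3 lesion array, against 10.95, 10.68 and 11.46 in CA3 controls. The lesion array was just below its controls in CA1 and among them in CA3, with a mean lesion effect of -0.10 (limma adjusted p = 0.964). Of the 8 tested interneuron markers, Pvalb among them, 6 were lower and 2 higher in the mean lesion effect. Their median was -0.30 and 0 passed. Their summed intensity was 54441 units in the CA1 lesion array and between 56486 and 100444 in CA1 controls. In CA3 it was 46026 in the lesion array and between 54971 and 69552 in controls. The part of interneurons in the Acan values was not tested.

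Vcan encodes versican, which exists in several splice forms, and it had 5 probe sets, of which only the brightest was tested. That probe set read 10.95 in the CA1 lesion array, against 11.07, 10.86 and 11.45 in CA1 controls, and 10.79 in the CA3 lesion array, against 10.40, 10.25 and 11.21 in CA3 controls. The lesion arrays lay inside the control range in both fields, and the mean lesion effect was -0.0015 (95% interval -0.70 to 0.70). The 4 dim Vcan probe sets had ranges of 2.68 to 3.62 log2 units over the 8 arrays, against 1.21 for the tested one, and their correlations with it ran from -0.20 to 0.32. With the 5 averaged, the mean lesion effect was 0.73 ± 0.95 (SE), of opposite sign.

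Ncan, the gene of neurocan, a lectican of developing neurons and reactive astrocytes, was dim and scattered. It read 8.18 in the CA1 lesion array, against 5.56, 6.69 and 8.91 in CA1 controls, and 7.38 in the CA3 lesion array, against 8.51, 5.78 and 5.54 in CA3 controls. Lesion arrays lay inside the control range in both fields. The difference without the filter, 0.95, had a 95% interval of -1.46 to 3.36, so nothing can be said of neurocan from these arrays.

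**Figure D2:**
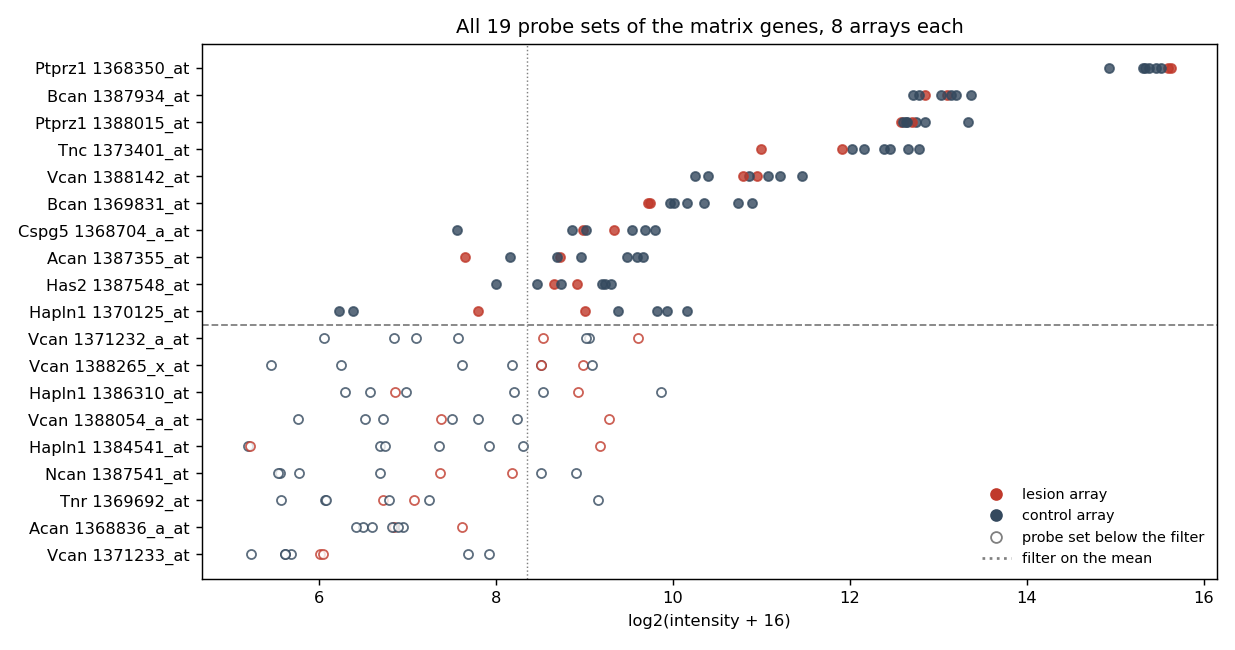
All 19 probe sets of the 10 genes, ordered by mean, with 1 point for each of the 8 arrays on the axis of log2(intensity + 16); lesion arrays are red, controls dark blue, and open points mark the 9 probe sets below the filter (dotted line). The untested probe sets scatter over a median of 3.55 log2 units and the tested ones over 1.25.

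The scatter of the dim probe sets was general on these arrays and not a feature of matrix genes. The median range over the 8 arrays was 3.55 log2 units for the 9 untested matrix probe sets and 3.44 for all 12417 untested ones. For the 10 tested matrix probe sets it was 1.25, against 1.19 for all 18625 tested.

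Ptprz1, a receptor-type tyrosine phosphatase of astrocytes and oligodendrocyte precursors whose secreted form is the proteoglycan phosphacan, varied little, over 0.71 and 0.76 log2 units in its 2 probe sets. Its brighter probe set read 15.60 in the CA1 lesion array, against 15.38, 15.31 and 15.34 in CA1 controls, and 15.63 in the CA3 lesion array, against 14.92, 15.51 and 15.46 in CA3 controls. Both lesion arrays lay above all 6 controls, which held for 4.63% of all tested probe sets (7.98% lay above the controls of both their own fields, 21.2% in CA1 and 29.7% in CA3), but the step was small: 0.29 ± 0.18 in the mean lesion effect (SE, 1.22-fold, limma adjusted p = 0.810). Its 95% interval in this fit, -0.11 to 0.69, leaves out a rise of more than 1.62-fold. That bound holds only for the fit without a term for the number. Over the settings tried, the mean lesion effect ran from 0.06 to 0.46.

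The dimmer Ptprz1 probe set did not share this order. It read 12.58 in the CA1 lesion array, against 13.34, 12.75 and 12.60 in CA1 controls, and 12.70 in the CA3 lesion array, against 12.63, 12.85 and 12.64 in CA3 controls. It was below its controls in CA1 by a small margin and among them in CA3, with a mean lesion effect of -0.17 (95% interval -0.65 to 0.32). The 2 probe sets correlated at 0.03 over the 8 arrays, and the transcript form read by each was not determined here.

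Cspg5 encodes neuroglycan C, a transmembrane chondroitin sulfate proteoglycan of neurons and glia. It read 9.33 in the CA1 lesion array, against 9.80, 7.57 and 9.69 in CA1 controls, and 8.99 in the CA3 lesion array, against 9.02, 8.86 and 9.53 in CA3 controls. Both lesion arrays lay among their controls, and CA1 control 2 stood apart from the other 7 arrays. The mean lesion effect was 0.08 ± 0.68 (SE, limma adjusted p = 0.987), and without CA1 control 2 it was -0.28.

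Has2, one of the enzymes that extrude hyaluronan, read 8.91 in the CA1 lesion array, against 8.0, 9.23 and 9.30 in CA1 controls, and 8.66 in the CA3 lesion array, against 8.46, 8.73 and 9.20 in CA3 controls. Lesion arrays lay among the controls in both fields. Hapln1, which encodes the link protein that locks lecticans onto hyaluronan, read 9.01 in the CA1 lesion array, against 9.38, 6.38 and 9.94 in CA1 controls, and 7.79 in the CA3 lesion array, against 6.22, 9.82 and 10.16 in CA3 controls.

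The Hapln1 values fell apart within each field, with CA1 control 2 and CA3 control 1 well below the other controls, so the interval of its mean lesion effect ran from -2.99 to 2.49. That of Has2 ran from -1.46 to 1.39. The 2 dim Hapln1 probe sets did not share the pattern, correlating with the tested one at -0.04 and 0.50. For the dimmest, the lesion array read 9.18 in CA1, above its controls at 6.69, 5.2 and 6.75, and 5.22 in CA3, below its controls at 7.36, 8.30 and 7.93. Its difference of effects in the fit without the filter was -5.61 (95% interval -9.43 to -1.79, limma adjusted p = 1.0).

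**Figure D3:**
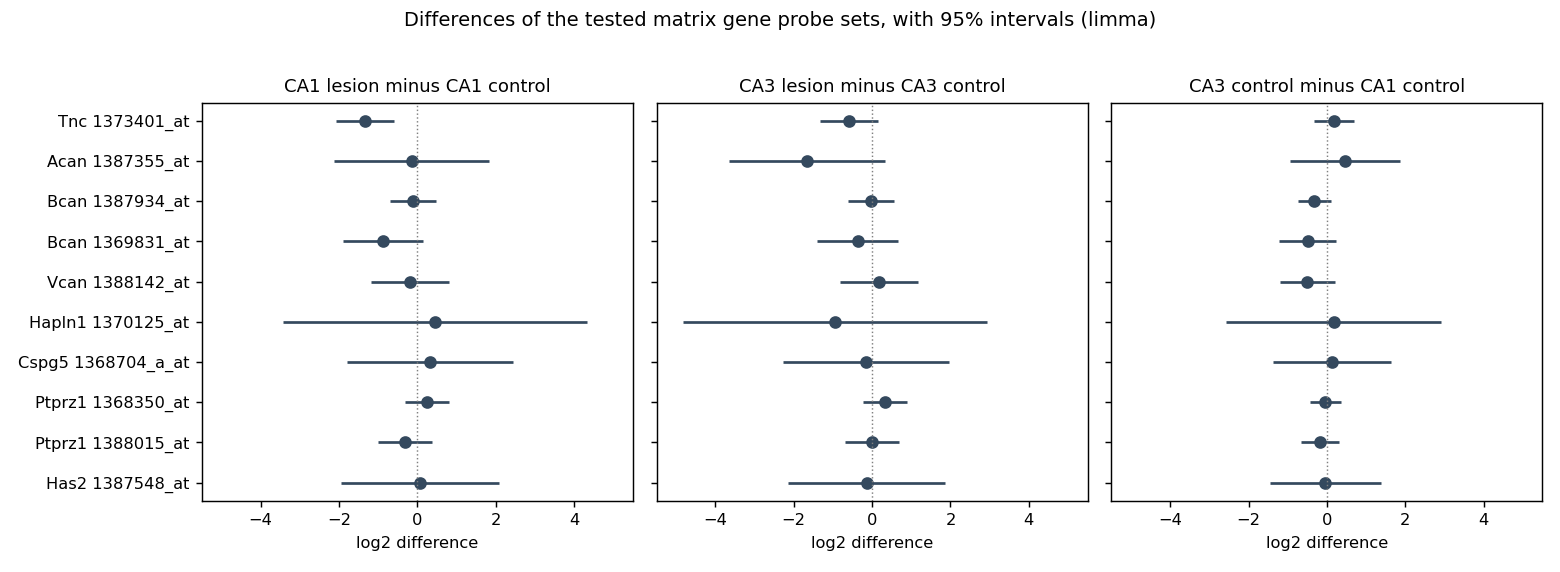
Log2 differences of the 10 tested probe sets with 95% intervals from limma, for the lesion effect in CA1 (left), the lesion effect in CA3 (middle) and CA3 against CA1 controls (right). Only the Tnc interval in CA1, -2.07 to -0.59, leaves out 0 before adjustment, and no adjusted p reached the threshold.

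Between the fields no difference in a matrix gene was resolved. For 0 of the 10 tested probe sets did the 3 CA3 controls lie all above or all below the 3 CA1 controls, beside 6.06% above and 8.85% below among all tested probe sets. Differences ran from -0.51 to 0.45, with 4 higher and 6 lower in CA3. Tnc averaged 12.5 ± 0.14 in CA3 and 12.32 ± 0.40 in CA1 (SD, n = 3 each), a difference of 0.18 with a 95% interval of -0.34 to 0.70.

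Of the 6 probe sets with lower values in CA3, the farthest from 0 were those of Vcan, at 10.62 ± 0.52 in CA3 and 11.13 ± 0.30 in CA1 (SD, n = 3 each), and of Bcan, at 12.88 ± 0.23 in CA3 and 13.20 ± 0.17 in CA1 by its brighter probe set. Both Bcan probe sets were lower in CA3, by -0.32 and -0.49, with limma adjusted p-values of 0.693 and 0.730. Has2 differed by -0.04. Ptprz1 differed by -0.05 and -0.19 in its 2 probe sets, and the 95% interval of the first, -0.44 to 0.35, leaves out a level over 1.28-fold higher in CA3. For Acan the interval was wider, from -0.96 to 1.85.

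The genes that build, cut and bind the matrix were read from 5 further lists with 97 genes, of which 71 were tested, and 0 of them passed for the lesion effects or between the fields. Among hyaluronan and link protein genes, Hapln4, a link protein of perineuronal nets, had the smallest p between the fields, at 1.17 ± 0.34 higher in CA3 controls (SE, limma adjusted p = 0.304). Among other proteoglycans Gpc4 was at -1.13 ± 0.26 in CA3 (SE, adjusted p = 0.143) and Dcn, the decorin gene, at -1.99 ± 0.52 (adjusted p = 0.212). The gelatinase gene Mmp2 was at 1.61 ± 0.43 (SE, adjusted p = 0.234). Of the 10 tested chondroitin sulfate synthesis genes, the 4 with the smallest p, Csgalnact1, Chpf2, B4galt7 and Chpf, differed by 0.29, -0.21, -0.28 and -0.15.

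For the mean lesion effect, 13 of 17 tested proteases and inhibitors had higher values, with a median of 0.25. Among all tested probe sets 52.2% had higher values, with a median of 0.02. Mmp14, a membrane-bound metalloprotease, was at 2.05 ± 0.88 (SE, limma adjusted p = 0.771). It read 9.93 in the CA1 lesion array, against 8.50, 7.88 and 6.34 in CA1 controls. In CA3 it read 10.21 in the lesion array, against 9.43, 8.78 and 7.19 in controls. These controls scatter around the filter at 8.35, and the mean used by the filter includes the lesion arrays. The higher lesion values thus helped this probe set pass the filter, and no weight is placed on its difference. Adamts4, which encodes a protease that cleaves aggrecan, brevican and other lecticans, was at 1.71 ± 0.87 (SE, adjusted p = 0.795), and Timp2, a metalloprotease inhibitor, at 0.46 ± 0.25 (adjusted p = 0.798). Adamts4 read 12.65 in the CA1 lesion array, against 8.43, 11.13 and 12.53 in CA1 controls, and 12.86 in the CA3 lesion array, against 10.53, 11.12 and 12.56 in CA3 controls. Both lesion arrays were above every control, which held for 4.63% of all tested probe sets, but only just above control 3 of each field. Cntn2, an adhesion molecule, was lower at -1.61 ± 0.64 (SE, adjusted p = 0.771), and Fn1, fibronectin, was at -0.41 ± 0.19 (adjusted p = 0.777).

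The controls themselves differed by the number in their titles, and this is where matrix-related genes did pass. In a fit to the 6 controls with field and number as terms, control number 3 against number 1 gave 840 probe sets past the threshold, or 4.51% of those tested (2.87% higher and 1.64% lower). Of the 10 tested matrix probe sets 0 passed (smallest adjusted p = 0.346, for Vcan at 0.60), and of the 71 other matrix-related genes 8 did (11.3%), 7 higher and 1 lower in number 3. The 11.3% counts genes by their main probe set, while the 4.51% counts all tested probe sets, so these shares are not like for like. Microglia markers (8 of 10 tested) and myelin markers (8 of 8) passed too, all higher in number 3, with list medians of 2.98 and 3.09. Higher as well were 2 of 11 astrocyte, 1 of 4 oligodendrocyte precursor and 1 of 2 dentate granule cell markers that passed. Passing in the lower direction were 2 of 9 pan-neuronal, 2 of 8 interneuron, 1 of 6 CA1 and 1 of 4 CA3 pyramidal markers. Arrays with one number are not stated to share animals or a culture date, and the part of these cell types in the values that follow was not tested.

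Adamts4 was the matrix-related gene with the largest difference that passed, at 3.06 ± 0.44 (SE, 8.37-fold higher in number 3, limma adjusted p = 0.00209), and the value ran from 2.02 to 4.11 over the settings tried. Cd44, the hyaluronan receptor of astrocytes and immune cells, was 3.06-fold higher in number 3 (1.61 ± 0.24, SE, adjusted p = 0.00245), while its other probe set gave 0.89 (adjusted p = 0.235). Sdc4, a heparan sulfate proteoglycan, and Itgb1, the common beta subunit of many matrix receptors, were each 1.0 higher on the log2 scale (limma adjusted p = 0.00285 and 0.00321), and Itih3, whose product binds hyaluronan, was 0.95 higher (adjusted p = 0.00552). The inhibitor Timp2 and the adhesion molecule Ncam1 were higher by 0.72 and 1.12, and Ptprs, a receptor for chondroitin sulfate, was lower at -0.62 (limma adjusted p = 0.0221, 0.0376 and 0.0364). The other Timp2 probe set ran the other way at -0.67, as did 2 untested Ncam1 probe sets at -0.41 and -0.50, and an untested Ptprs probe set at 0.59. The other tested probe sets of Itgb1 and Ptprs did not pass.

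These calls did not hold under every setting. In place of 840, leaving out control 3 gave 127 in CA1 and 108 in CA3, leaving out control 1 gave 1547 in CA1 and 1503 in CA3, and fitting no intensity trend in the variances gave 0. Without an intensity trend, or without CA1 control 3, none of the 8 genes passed, and without CA3 control 3 only Adamts4 did. The differences themselves moved less: without CA1 control 3 and without CA3 control 3, Cd44 was at 1.51 and 1.72, Itgb1 at 1.01 and 0.99, and Adamts4 at 2.55 and 3.57. Ncam1 also lost the call without CA3 control 1 (adjusted p = 0.0997). Without CA1 control 1, the main probe set of Ptprz1 passed at 0.56 (limma adjusted p = 0.0182) and Hapln1 at 4.74 (adjusted p = 0.0255), in place of 0.25 and 2.25 with all controls.

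**Figure D4:**
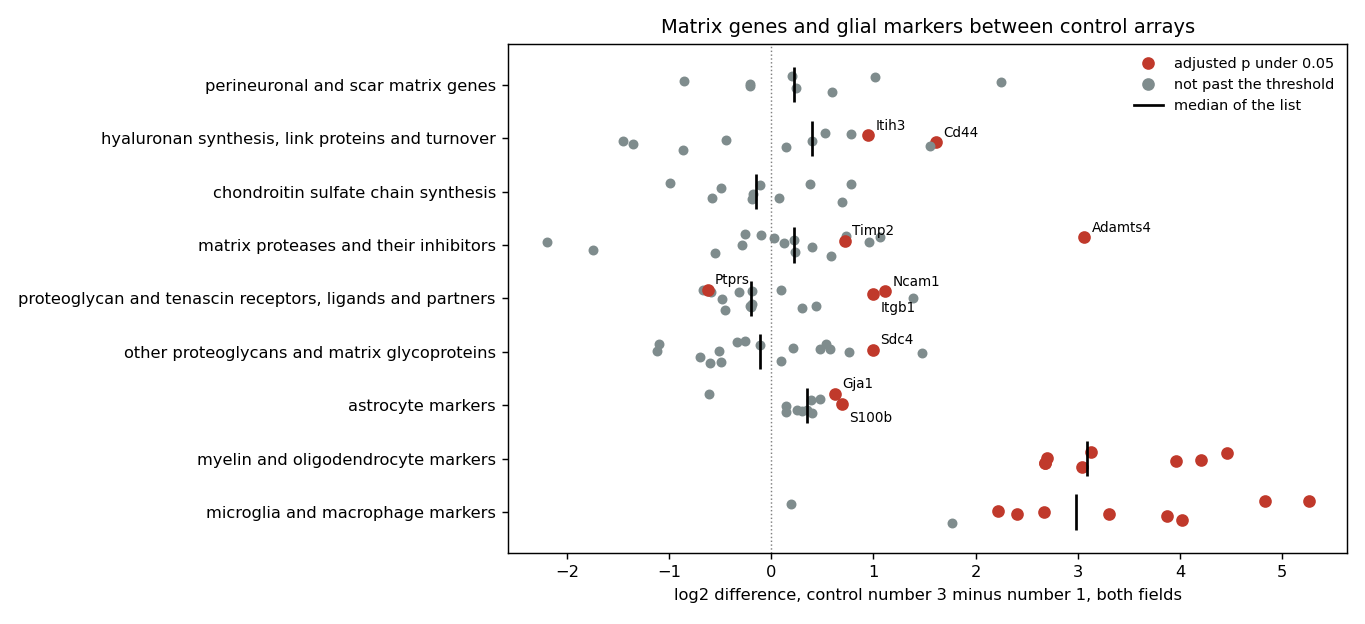
Log2 difference of control number 3 minus control number 1 over both fields, 1 point per tested gene (main probe set), for the matrix genes, 5 lists of matrix-related genes and 3 lists of glial markers, with the list median as a bar and genes past the threshold in red. The 8 matrix genes show no red point and a median of 0.22, while Adamts4 at 3.06 and Cd44 at 1.61 stand out among related genes, and the myelin and microglia medians lie at 3.09 and 2.98.

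The matrix genes did not follow one another across the arrays. Over the 8 arrays the Pearson correlations between the 8 tested genes, which share arrays and groups, ran from -0.61 for Acan and Vcan to 0.70 for Hapln1 and Cspg5, and that of Tnc with Acan was 0.53. By the same measure over 10843 other genes, the most similar to Tnc were Ttl (0.96), Kiaa1671 (0.96) and Cntn2 (0.95). Those most similar to Ptprz1 were Nat1 (0.96), Cyfip1 (0.96) and Chmp3 (0.96), and for Bcan they were Tspan13 (0.97), Chid1 (0.97) and Ccni (0.96). The top 3 of every tested member lay between 0.94 and 0.97. With so few arrays and so many genes, values of this size are a description of these arrays only.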

How the data were processed

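The deposited values are linear intensities, 1 for each of 31099 probe sets on each of 8 rat expression arrays. The 2% trimmed mean lay near 2501 on all of them, which is why scaling by the authors is assumed. Software and probe summary: not given in the sources used here. Groups and numbers came from the titles.

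Intensities were converted to log2(value + 16). After 57 control probe sets were left out, those with a mean under the 40th percentile were removed, which left 18625. Genes came from the platform annotation (20832 probe sets with 1 symbol, control probe sets included, of which 20764 matched RefSeq for GRCr8 by gene identifier). The brightest probe set of a gene is its main one.

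limma 3.58.1 in R 4.3.3 was fitted to all arrays with 1 coefficient per group and variances that follow intensity (4 residual degrees of freedom). Lone lesion arrays were assumed to vary like controls. Controls 3 and 1 were compared in the 6 controls with field and number as terms (2 residual degrees of freedom). Benjamini-Hochberg adjustment covered all tested probe sets. The fit was also run on simulated arrays with independent errors and no difference by number. That run therefore does not cover the differences between numbers seen in the controls. The genes, lists and tests were chosen with earlier results of these data known. Named beside the members are list genes past the threshold, up to 4 per list by p, and the 3 genes most similar to each member; the single marker genes named (such as Gfap and Pvalb) were added after their values were seen.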

Additional observations from a re-analysis of the deposited data

How the results depend on the processing

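Precision was limited by 1 lesion array per field and by dim signal: Ncan, Tnr and 9 of 19 probe sets were too dim to test. The alternatives gave 758 values for 48 member differences, of which 692 kept direction and side of the threshold, 64 changed sign and 2 passed. Tnc stayed lower in both fields and in their mean in every setting tried. The mean effect of Tnc had adjusted p-values from 0.0580 to 0.959, the lowest with the number as a block.

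Deviations of same-numbered CA1 and CA3 controls correlated at 0.16, 0.06 and 0.31, and each array correlated best with its own number in the other field. For number 2 the margin was small, at 0.060 against 0.056 and 0.042. Arrays numbered 1 and 3 correlated at -0.20 across the fields, both ways. The main fit had no term for the number. With the number as a replicate block, 358 probe sets passed between the fields (98 without it), 697 for the mean lesion effect, 258 in CA1 and 310 in CA3, and 0 of the 8 main matrix probe sets were among them. The count between the fields was 0 without an intensity trend. Leaving out both arrays of one control number was an alternative chosen after the data were seen. Dropping both numbered 1 gave 5 between the fields. Dropping both numbered 3 meant that 182 passed for the mean lesion effect, 3 in CA1 and 6 in CA3. In CA3, 5 passed after quantile normalisation and 5 with a pseudocount of 1. For control 3 against 1, 0 passed without a trend. Leaving out 1 array gave 24 to 104 between the fields, 0 to 1 for the mean lesion effect and 108 to 1547 for control 3 against 1.

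None of the member differences that changed sign had passed the test. With the block, the mean lesion effect was 0.14 for Vcan, 0.60 for Hapln1, -0.25 for Cspg5 and 0.56 for Has2, the CA1 effect of Cspg5 was -0.013 and the CA3 effect of Has2 was 0.45. Without control 3 of both fields, the mean effect was 0.23 for Vcan, 0.45 for Hapln1 and 0.18 for Has2, and the CA3 effect 0.048 for Cspg5 and 0.061 for Has2. Without control 1 of both fields, the difference of effects was -0.058 for Bcan, -0.13 for Ptprz1 and 0.041 for Has2, the field difference of Ptprz1 0.16 and the CA1 effect of Has2 -0.35. After quantile normalisation the CA1 effect of Acan was 0.094, the CA3 effect of Bcan 0.012 and the field difference of Has2 0.21. With all probe sets averaged, Vcan gave 0.12 between the fields, 0.73 for the mean lesion effect, 0.94 in CA1 and -0.40 for the difference of effects, and Hapln1 0.021 for the mean effect. Averaging gave -0.033 for Ptprz1 in CA1 and -0.059 for control 3 against 1, and 0.032 for Acan in CA1. The cause of these changes was not tested.

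Leaving out 1 array gave these ranges where a sign changed. Between the fields they were -0.46 to 0.18 for Has2, -0.15 to 0.14 for Ptprz1, -0.92 to 1.43 for Hapln1 and -0.60 to 0.51 for Cspg5. For the mean lesion effect they were -0.88 to 0.11 for Hapln1, -0.094 to 0.15 for Vcan, -0.11 to 0.00065 for Bcan, -0.25 to 0.079 for Has2 and -0.28 to 0.28 for Cspg5. In CA1 they were -0.65 to 1.13 for Hapln1, -0.41 to 0.71 for Cspg5, -0.50 to 0.16 for Acan and -0.35 to 0.30 for Has2. In CA3 they were -0.31 to 0.061 for Has2, -0.29 to 0.048 for Cspg5, -0.012 to 0.47 for Vcan and -0.11 to 0.10 for Bcan. For the difference of effects they were -0.44 to 0.21 for Has2, -0.11 to 0.19 for Ptprz1, -0.012 to 0.20 for Bcan and -0.86 to 0.26 for Cspg5. For control 3 against 1 they were -0.064 to 0.56 for Ptprz1, -0.47 to 0.88 for Cspg5, -0.45 to 0.038 for Tnc and -0.24 to 4.74 for Hapln1. Without a lesion array its own effect, the mean and the difference could not be estimated, and no block was possible for control 3 against 1, where number is the comparison.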
